A study of Mus musculus with 2 samples.

Results

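The cells described here carry transcripts of Cldn5, Flt1, Itm2a and Igfbp7, a gene set typical of brain endothelium, in a series of cells labelled as microglia-like. A cell was a member when it held at least 5 unique molecular identifiers (UMIs, each standing for 1 captured transcript) of these 4 genes together. It also had to have at least 500 genes, under 10% mitochondrial UMIs, under 2000 CPM (counts of UMIs scaled to a total of 1000000 per cell or group of cells) of C1qa, C1qb and C1qc, under 20000 CPM of S100a8 and S100a9, and no more than 5000 CPM of Ttr. Its barcode had to be listed in 1 library only. There were 73 such cells among 4196 listed cells, and 2985 cells were kept by the filters and outside the shared barcodes.

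Single-cell RNA sequencing (10x Genomics Chromium 3′ kit v3.1) gave 1 library labelled Cx3cr1-/+ (heterozygous) and 1 labelled Cx3cr1+/+ (wild type), both from the central nervous system. Per the labels, donor cells came from the Lin- fraction of Cx3cr1-/+ mice, sorted as GFP+ or GFP-, and went into CD45.1 recipients treated with busulfan, a drug that depletes marrow stem cells, in 4 doses of 25 mg/kg. That text is given for both libraries, and no separate donor is named for the wild-type one. The number of animals, their age and sex, and the time after transplantation were not given in the sources used here. Nothing in the labels says which cells came from the donor and which from the recipient. With 1 library per genotype, every difference between them compares these 2 libraries, has no replicate check and carries no test, and all intervals cover counting error only.

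Endothelial cells line blood vessels, and in the brain they form the blood-brain barrier: tight junctions seal the gaps between them, and transporters and efflux pumps carry selected molecules across. Arteries, capillaries and veins differ in their endothelial genes, with transporters of the barrier concentrated in capillaries and adhesion molecules for leukocytes in veins. Pericytes and smooth muscle cells wrap the same vessels, and fibroblasts lie around the larger ones.

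The promoters of the 4 genes that chose the cells are shown because these genes were counted together in 1 rule but were not restricted to the same cells. Each run covers 250 bases before to 50 bases after the gene's start in RefSeq (GRCm38.p6), on the gene's strand. Capitals mark AGGAAG or its reverse complement CTTCCT, a longer form of the GGAA core bound by ETS factors, a family with long-known roles in endothelial genes. The GGAA core alone was neither marked nor counted.
Cldn5, chr16:18776597-18776896, plus strand: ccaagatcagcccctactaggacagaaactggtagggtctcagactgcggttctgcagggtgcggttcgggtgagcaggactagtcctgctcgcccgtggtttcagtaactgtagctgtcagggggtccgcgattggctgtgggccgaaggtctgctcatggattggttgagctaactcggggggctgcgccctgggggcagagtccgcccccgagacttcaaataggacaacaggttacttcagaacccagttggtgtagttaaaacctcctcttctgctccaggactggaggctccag
Flt1, chr5:147725962-147726261, minus strand: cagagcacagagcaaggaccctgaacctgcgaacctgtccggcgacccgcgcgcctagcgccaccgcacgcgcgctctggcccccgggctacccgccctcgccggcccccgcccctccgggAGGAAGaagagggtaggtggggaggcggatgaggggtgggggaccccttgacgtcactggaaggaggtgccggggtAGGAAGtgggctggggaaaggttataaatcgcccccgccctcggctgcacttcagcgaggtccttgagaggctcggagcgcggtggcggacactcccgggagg
Itm2a, chrX:107403311-107403610, minus strand: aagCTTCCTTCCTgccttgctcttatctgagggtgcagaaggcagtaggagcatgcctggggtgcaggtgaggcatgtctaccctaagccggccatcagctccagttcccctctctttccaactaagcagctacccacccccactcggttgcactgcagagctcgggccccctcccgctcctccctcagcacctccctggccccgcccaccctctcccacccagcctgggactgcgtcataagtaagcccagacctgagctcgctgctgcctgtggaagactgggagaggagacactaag
Igfbp7, chr5:77407996-77408295, minus strand: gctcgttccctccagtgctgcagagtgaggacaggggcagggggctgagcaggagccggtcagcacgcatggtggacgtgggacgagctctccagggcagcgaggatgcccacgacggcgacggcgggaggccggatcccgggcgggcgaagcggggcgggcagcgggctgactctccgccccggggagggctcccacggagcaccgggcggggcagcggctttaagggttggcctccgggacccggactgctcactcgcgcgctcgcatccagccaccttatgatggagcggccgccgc
The letters occurred 2 times in the Flt1 window, both before the gene's start, and 2 times, overlapping, in the Itm2a window. They did not occur in the Cldn5 and Igfbp7 windows. Of 32851 promoter windows of this length, 35.4% held them on either strand. TATAAA occurred in the Flt1 window at -31 and in 13.6% of all windows. AGATAA, the GATA letters, occurred in the Itm2a window on the reverse strand and in 11.2% of all windows. Guanine and cytosine made up 58.3% of the Cldn5 window, 70.7% of Flt1, 62.0% of Itm2a and 73.3% of Igfbp7, beside a median of 52.7% over all windows.

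Members made up 4.38% of kept cells in the heterozygous library (54 of 1234, exact Clopper-Pearson 95% interval 3.30 to 5.67%) and 1.09% in the wild-type library (19 of 1751, 0.655 to 1.69%). Sequencing depth was 17828344 UMIs over 1837 listed barcodes for the heterozygous library, against 22062823 UMIs over 2359 for the wild type. Members summed to 450815 UMIs in the heterozygous library and 167282 UMIs in the wild-type library. Their median depth was 5274 UMIs in the heterozygous library, against 8628 in its other kept cells, and 7981 UMIs in the wild-type library, against 7238.5 in its other kept cells. The members just inside the limit held 6, 7 and 8 UMIs of the rule genes in the heterozygous library and 6 and 6 in the wild-type library. Outside it, 7 heterozygous and 6 wild-type cells held 3 or 4. The limits on C1q, S100a8/9 and Ttr kept out another 7 heterozygous and 1 wild-type cell.

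Barcodes listed in both libraries numbered 339, or 18.5% of those in the heterozygous library and 14.4% in the wild type. The same rule applied to them found 18 heterozygous and 15 wild-type cells, and 12 barcodes met it in both libraries. Those cells were shallow, with medians of 1175 UMIs in the heterozygous library and 1107 UMIs in the wild-type library. They are left out of every value here, and the alternative that keeps them is given with the processing alternatives.

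The endothelial label did not hold for all of the cells. A list of 14 endothelial markers that the rule did not use (Ly6c1, Pecam1, Cdh5, Tie1, Tek, Kdr, Esam, Egfl7, Emcn, Erg, Sox17, Sox18, Slco1a4 and Slc2a1) was summed in each cell, beside 4 lists of other types: pericyte or smooth muscle, fibroblast, pan-leukocyte and erythroid. At a level of 2000 CPM, 27 of 54 heterozygous members (interval 36.1 to 63.9%) and 10 of 19 wild-type members (interval 28.9 to 75.6%) passed the endothelial list and none of the others, and are called endothelial-marked below. Another 13 heterozygous and 3 wild-type members passed the endothelial list and 1 other list, and are called doubly marked. The endothelial list was under that level in 14 heterozygous and 6 wild-type members. These classes and their level were chosen after the values were seen, so counts by class are description. No cell was removed as a doublet.

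The cells under the endothelial level mostly passed 1 of the other lists. In the heterozygous library 7 of them passed the pericyte or smooth muscle list, 5 the fibroblast list and 2 no list. In the wild-type library 1 passed the pericyte or smooth muscle list, 3 the fibroblast list and 2 the pan-leukocyte list. Acta2, the smooth muscle actin, had 310, 250 and 113 UMIs in 3 heterozygous cells, and no wild-type member held any. Dcn, the matrix proteoglycan decorin of fibroblasts, reached 125 UMIs in 1 heterozygous cell and 48 UMIs in 1 wild-type cell. The 2 heterozygous cells that passed no list held 673 and 290 UMIs of Mcpt8 and 1206 and 1196 UMIs of Prss34, proteases of basophils and mast cells, and each met the rule with 6 or 7 UMIs, 6 of them Igfbp7.

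Among doubly marked cells, the second list was that of pericytes or smooth muscle in 10 of 13 heterozygous and 1 of 3 wild-type cells. Vtn, an adhesive glycoprotein abundant in brain pericytes, was at 3703 CPM in heterozygous and 216 CPM in wild-type doubly marked cells. Vtn was at 19.2 CPM in heterozygous and 0 UMIs in wild-type endothelial-marked cells. The wild-type doubly marked level was 6 UMIs in 1 cell. Vtn is on the pericyte or smooth muscle list, so its split between these classes is largely built in. Doubly marked cells had a median of 12503 UMIs in the heterozygous and 8670 UMIs in the wild-type library, and endothelial-marked cells had 4912 UMIs in the heterozygous and 7170.5 UMIs in the wild-type library. In the heterozygous library 1 doubly marked cell gave 767481 CPM to haemoglobin and Alas2. The part of these second lists in any level over all members was not tested.

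**Figure D1:**
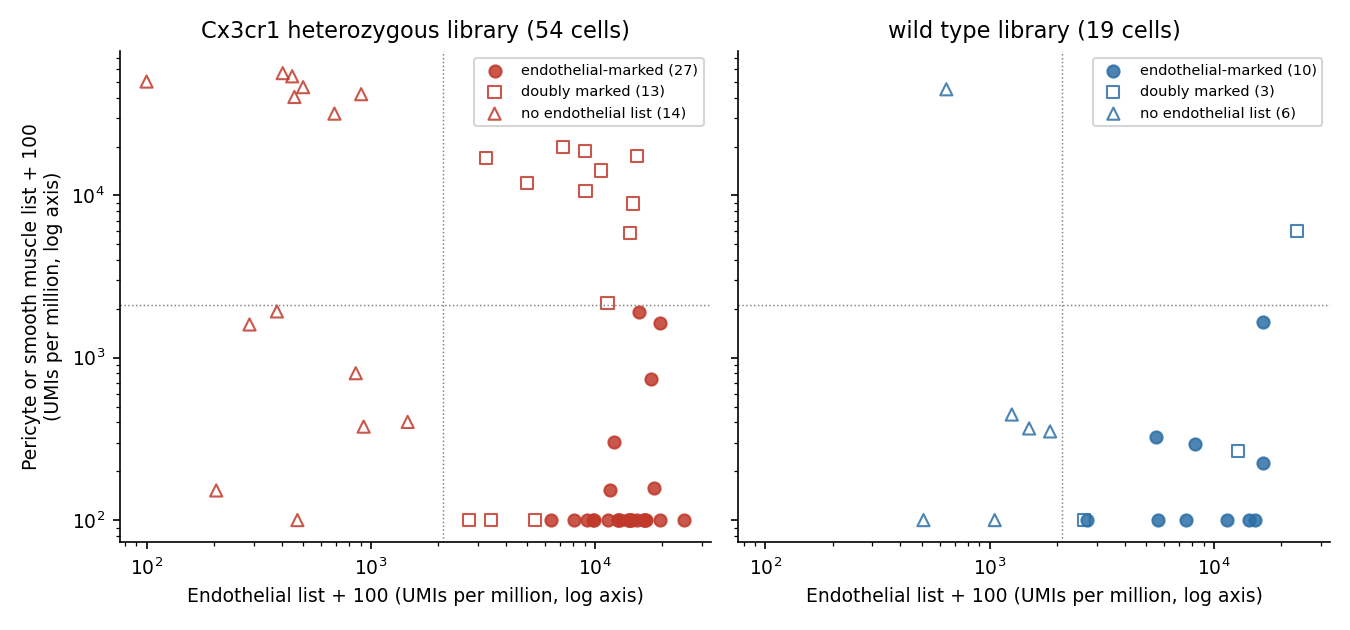
Each point is a member, placed by the sum of 14 endothelial markers (x axis) and of 15 pericyte or smooth muscle markers (y axis), in CPM plus 100 on log axes, with the heterozygous library left and the wild-type library right. Dotted lines mark 2000 CPM, and the 10 heterozygous squares above the horizontal line are the doubly marked cells with pericyte or smooth muscle genes.

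The 4 rule genes were spread unevenly over these classes. They chose the cells, so their levels are a description. Cldn5, the main claudin of brain endothelial tight junctions, stood at 2513 CPM in heterozygous and 1759 CPM in wild-type endothelial-marked cells, and at 14.6 CPM in heterozygous and 0 UMIs in wild-type cells under the endothelial level. Flt1, a receptor of vascular endothelial growth factor (VEGF), stood at 2936 CPM in heterozygous and 1089.7 CPM in wild-type endothelial-marked cells, and at 7.32 CPM in heterozygous and 77.8 CPM in wild-type cells under the level. Igfbp7, a secreted binding protein of insulin-like growth factors, did not follow this split. It stood at 3167 CPM in heterozygous and 3825 CPM in wild-type endothelial-marked cells, and at 3822 CPM in heterozygous and 5779 CPM in wild-type cells under the level. All 14 heterozygous and all 6 wild-type cells under the level held Igfbp7, while Cldn5 was found in 1 heterozygous cell and 0 wild-type cells of that class.

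Itm2a, a membrane protein, lay between these patterns, at 2936 CPM in heterozygous and 2202 CPM in wild-type endothelial-marked cells and at 329 CPM in heterozygous and 234 CPM in wild-type cells under the level. Ly6c1, a surface protein, was not used by the rule but is 1 of the 14 markers that define the classes, so its split between them is built in. It was found in 27 of 27 heterozygous and 10 of 10 wild-type endothelial-marked cells, at 5251 CPM in heterozygous and 2872 CPM in wild-type cells. Under the level it was in 0 of 14 heterozygous and 1 of 6 wild-type cells. Ly6c1 and Ly6c2 are near-identical copies, so the split of their reads is uncertain. Within the endothelial-marked cells, Cldn5 ranged over the cells from 0 through a median of 2037 to 5219 CPM in heterozygous cells, and from 0 through 1678 to 2556 CPM in wild-type cells. These ranges overlap.

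**Figure D2:**
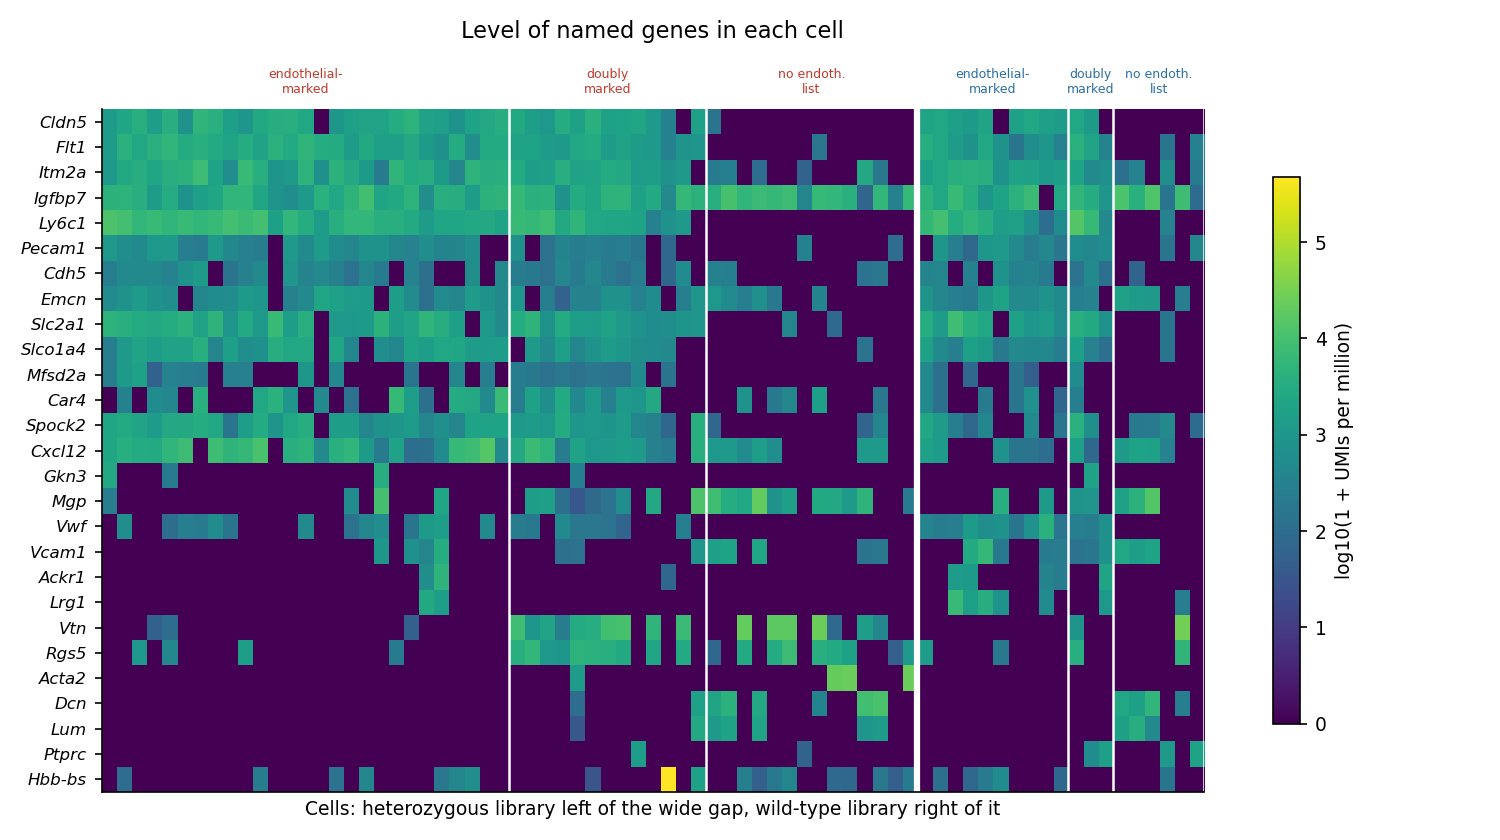
Columns are the 73 members, grouped by library (heterozygous left of the wide gap, wild type right) and marker class, and rows are genes coloured by log10(1 + CPM). Cldn5, Flt1 and Ly6c1 (a marker that helped define the classes) are mostly dark in cells with no endothelial list, where Igfbp7 has at least 1 UMI in all 14 heterozygous and all 6 wild-type cells.

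Depth was equalised by thinning each cell to 2000 UMIs, which left out 3 heterozygous members. Cldn5 then had a UMI in 68.6% of heterozygous members (35 of 51) and 52.6% of wild-type members (10 of 19). Without thinning these shares were 72.2% (39 of 54) of heterozygous and 57.9% (11 of 19) of wild-type members. Free RNA sets a floor for such shares: in the other kept cells with S100a8/9 at the level of neutrophils, which should lack Cldn5, the thinned share was 0.730% (2 of 274) in the heterozygous library and 0 of 414 cells in the wild-type library, for which 3 counts of 414 allow up to 0.725%. Before thinning, the median depth of those cells was 16792.5 UMIs in the heterozygous and 13251.5 UMIs in the wild-type library. Slco1a4, an organic anion transporter of the barrier, had a UMI in 84.0% of heterozygous (21 of 25) and 70.0% of wild-type (7 of 10) endothelial-marked cells, beside 0.730% and 0 of those neutrophil-range cells.

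Endothelial identity genes were present in the endothelial-marked cells of both libraries at levels far above the other kept cells. Cdh5, the cadherin of endothelial junctions, stood at 346 CPM in heterozygous and 272 CPM in wild-type endothelial-marked cells, against 0.899 CPM in the other kept heterozygous and 0.259 CPM in the other kept wild-type cells. Esam, an adhesion molecule of endothelial junctions, stood at 898 CPM in heterozygous and 602 CPM in wild-type cells. Pecam1, an adhesion molecule that leukocytes also carry, stood at 628 CPM in heterozygous and 397 CPM in wild-type cells, and at 37.9 CPM in the other kept heterozygous and 55.1 CPM in the other kept wild-type cells. Cdh5, Esam and Pecam1 are among the 14 markers that defined the class, as are Tek, Kdr, Sox18, Slco1a4 and Slc2a1 below, so their height above the other cells is a description. Lymphatic markers gave 70.5 CPM over 6 genes in heterozygous and 22.7 CPM in wild-type endothelial-marked cells, with Prox1, the master regulator of lymphatic endothelium, at 0 UMIs in both.

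Differences between the libraries were called when past 1.5-fold. Among the endothelial-marked cells, 142 genes were higher and 130 lower in the heterozygous library, of 757 genes with at least 50 UMIs, which is 18.8% and 17.2%. Among genes with at least 10 UMIs, the limit used for gene lists, 27.8% were higher and 20.6% lower, so a list's share is read against those values. The median log2 ratio over all 4046 such genes was 0.05. The 14 markers that defined the class summed to 14727 CPM in heterozygous and 9137 CPM in wild-type endothelial-marked cells. The part of this gap, and of the cells with high venous lists described below, in the list ratios was not tested. The list counts include the genes that chose the cells: Flt1 is on the VEGF list, Itm2a on the barrier list, Cldn5 on the junction list and Igfbp7 on the matrix list. They also include markers that defined the endothelial-marked class, such as Sox18 among transcription factors and Slc2a1 and Slco1a4 among barrier transporters.

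Of 33 measured identity genes, 11 were higher and 5 lower in the heterozygous library, with a median log2 ratio of 0.35. Tek, the angiopoietin receptor, was at 289 CPM in heterozygous and 125 CPM in wild-type cells, a log2 ratio of 1.21 (interval 0.23 to 2.31). Kdr, the main signalling VEGF receptor, was at 436 CPM in heterozygous and 261 CPM in wild-type cells, a log2 ratio of 0.74 (0.04 to 1.49). Clec14a, a C-type lectin of endothelium, was at 173 CPM in heterozygous and 477 CPM in wild-type cells, a log2 ratio of -1.46 (-2.22 to -0.73). Ecscr, a surface protein of endothelium, stood at 192 CPM in heterozygous and 420.0 CPM in wild-type cells. The VEGF and angiopoietin list had 7 of 12 measured genes higher and 3 lower, 2 being at their bound. Its lower genes included Angpt2, a ligand of Tek, with 2 UMIs in heterozygous and 15 UMIs in wild-type cells, and Apln, a peptide hormone of sprouting vessels, with 0 UMIs in heterozygous and 20 UMIs in wild-type cells. All 20 Apln UMIs came from 1 wild-type cell.

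Transcription factors of endothelium were higher in 12 and lower in 5 of 24 measured genes, with a median log2 ratio of 0.61. Sox18, a SOX factor of vessel development, stood at 410 CPM in heterozygous and 114 CPM in wild-type cells, a log2 ratio of 1.85 (0.88 to 2.98). It was found in 21 of 27 heterozygous and 5 of 10 wild-type cells. Klf4, a factor induced by blood flow, stood at 1449 CPM in heterozygous and 681 CPM in wild-type cells, a log2 ratio of 1.09 (0.67 to 1.52). Klf2, also induced by flow, stood at 6649 CPM in heterozygous and 4540 CPM in wild-type cells, a log2 ratio of 0.55, short of 1.5-fold. Both Klf genes were also present in the other kept cells, Klf4 at 355 CPM in heterozygous and 447 CPM in wild-type ones.

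Barrier transporters gave 16 higher and 1 lower of 26 measured genes, with a median log2 ratio of 0.80. Slc2a1, the glucose transporter of the barrier, stood at 2571 CPM in heterozygous and 1930 CPM in wild-type cells, a log2 ratio of 0.41 (0.15 to 0.68), within 1.5-fold. Slco1a4 was at 1519 CPM in heterozygous and 704 CPM in wild-type cells (log2 ratio 1.11), and Slco1c1, a thyroxine transporter, at 1084 CPM in heterozygous and 579 CPM in wild-type cells (0.90). The efflux pumps Abcb1a (P-glycoprotein) and Abcg2 had log2 ratios of 0.73 and 0.87. Mfsd2a, a lipid transporter that limits vesicular transport across the barrier, was at 276 CPM in heterozygous and 79.5 CPM in wild-type cells, a log2 ratio of 1.79 (0.63 to 3.19), resting on 43 and 7 UMIs. The exception was Slc38a5, a glutamine transporter, with 17 UMIs (109 CPM) in heterozygous and 26 UMIs (295 CPM) in wild-type cells, a log2 ratio of -1.44 (-2.41 to -0.50). Of these, 8 heterozygous UMIs lay in 2 cells and 23 wild-type UMIs in 4 cells with high venous lists, described below, and 9 heterozygous and 3 wild-type UMIs in the remaining cells. Tight and adherens junction genes had 6 of 16 higher and 1 lower, with a median of 0.47.

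The Wnt pathway, which maintains the barrier, had 9 of 12 measured genes higher and 0 lower, with a median of 0.84. Lef1, its transcription factor, stood at 378 CPM in heterozygous and 216 CPM in wild-type cells, a log2 ratio of 0.81 (0.04 to 1.64). Most of this list was sparse: of its other genes, Fzd6, a Frizzled receptor, had 18 UMIs in heterozygous and 3 UMIs in wild-type cells. The Notch list had 7 of 9 higher and 0 lower, with a median of 1.58. That median was 0.99 without the deepest cell of each library, 1.03 with marker lists at 4000 CPM and 0.88 after thinning. Hes1, a Notch target, stood at 340 CPM in heterozygous and 114 CPM in wild-type cells, a log2 ratio of 1.58 (0.59 to 2.72), and the receptor gene Notch4 had 18 UMIs in heterozygous and 1 UMI in wild-type cells. The BMP and TGF-beta list was even, with 3 higher and 3 lower of 13.

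**Figure D3:**
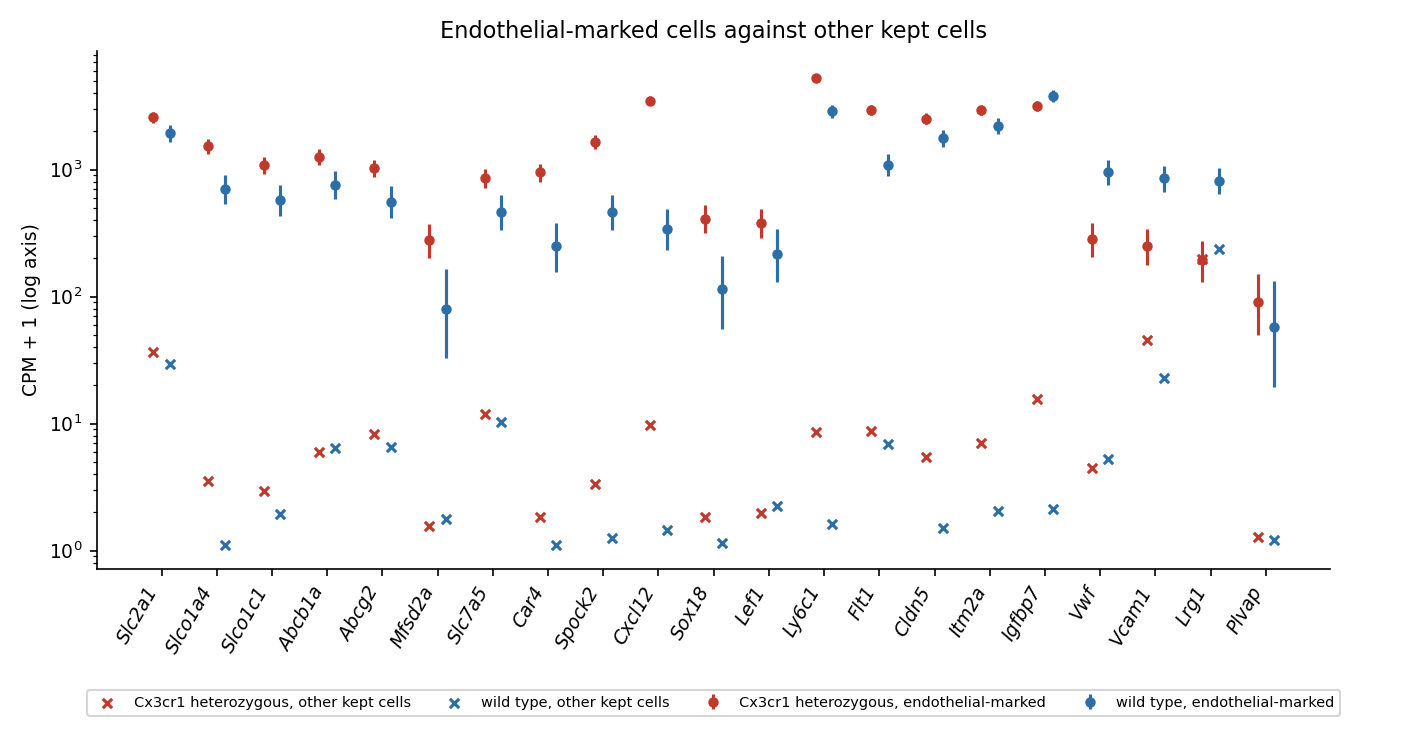
Circles give CPM plus 1 (log axis) summed over 27 heterozygous (red) and 10 wild-type (blue) endothelial-marked cells with exact Poisson 95% intervals, and crosses give the other kept cells of the same library. Cxcl12 stands at 3494 CPM in heterozygous and 341 CPM in wild-type cells, while Vwf, Vcam1 and Lrg1 stand lower in the heterozygous cells.

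Lists of genes by position along the vessel tree differed in opposite directions between the libraries. The capillary list had 8 of 10 measured genes higher and 0 lower (median log2 ratio 1.01), and the arterial list 8 of 11 higher and 2 lower (2.08, with 2 genes set at a bound of 3 UMIs because a library had none). The arterial median was 0.61 with marker lists at 4000 CPM and 1.33 with equal weight per cell. Cxcl12, described next, is on the arterial list. It held 3494 of the list's 5251 CPM in heterozygous and 341 of its 1090 CPM in wild-type cells. The venous list had 2 of 16 higher and 10 lower, with a median of -1.23 and 1 gene at its bound. All 3 lists were chosen with earlier results of these data known, so their direction is description.

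Cxcl12 (chr6:117168535-117181367, plus strand), the chemokine that binds Cxcr4, had the highest ratio in endothelial-marked cells among genes with at least 50 UMIs that the naming rule allows. It stood at 3494 CPM in heterozygous and 341 CPM in wild-type cells, a log2 ratio of 3.36 (2.83 to 3.94). Its per-cell level ran from 0 through a median of 3775 to 14830 CPM in heterozygous cells and from 0 through 132 to 1733 CPM in wild-type cells. It was found in 25 of 27 heterozygous and 6 of 10 wild-type cells, and no single heterozygous cell gave more than 10.3% of its UMIs. The wild-type level rested on 30 UMIs, with 36.7% of them in 1 cell. The ranges overlap, since some heterozygous cells held none. Edn1, a vasoconstrictor, followed at 474 CPM in heterozygous and 102 CPM in wild-type cells, with 77.8% of the wild-type UMIs in 1 cell.

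Capillary genes showed the same order. Spock2, a matrix proteoglycan, stood at 1648 CPM in heterozygous and 465 CPM in wild-type cells, a log2 ratio of 1.82 (1.34 to 2.34), in 26 of 27 heterozygous and 7 of 10 wild-type cells. Car4, a membrane carbonic anhydrase of capillaries, stood at 949 CPM in heterozygous and 250 CPM in wild-type cells (log2 ratio 1.93), but 68.2% of its wild-type UMIs came from 1 cell. Rgcc, a cell cycle regulator used as a capillary marker, stood at 885 CPM in heterozygous and 284 CPM in wild-type cells. Rgcc was also in the other kept cells, at 43.7 CPM in heterozygous and 46.8 CPM in wild-type cells.

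Venous genes ran the other way. Vwf (chr6:125546774-125686679, plus strand), the carrier of clotting factor VIII that tethers platelets, stood at 282 CPM in heterozygous and 953 CPM in wild-type cells, a log2 ratio of -1.76 (-2.32 to -1.21). It was found in 14 of 27 heterozygous and 10 of 10 wild-type cells, with 45.2% of the wild-type UMIs in 1 cell. Vcam1, an adhesion molecule for leukocytes, had 39 UMIs in 4 heterozygous and 75 UMIs in 5 wild-type cells, a log2 ratio of CPM of -1.77 (-2.36 to -1.19), and 52.0% of the wild-type UMIs came from 1 cell. Tmem252, a membrane protein on the venous list, stood at 474 CPM in heterozygous and 1010.2 CPM in wild-type cells. Lrg1, a secreted glycoprotein, stood at 192 CPM in heterozygous and 817 CPM in wild-type cells, and Lcn2, a siderophore-binding lipocalin, at 289 CPM in heterozygous and 931 CPM in wild-type cells, with 67.1% of the wild-type Lcn2 UMIs in 1 cell. Lrg1 and Lcn2 were at 197 and 3336 CPM in the other kept heterozygous cells and at 238 and 2450 CPM in the other kept wild-type cells, and the part of that background was not tested.

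These sums rest on few cells. The venous list, summed per cell, reached 10000 CPM in 2 of 27 heterozygous cells, at 13330 and 21023 CPM, and in 4 of 10 wild-type cells, from 15270 to 19236 CPM. Every other cell stood at or below 5188 CPM among heterozygous and 4452 CPM among wild-type cells, so no cell lay between those values and 10000 CPM. All 30 Lrg1 UMIs and all 32 UMIs of Ackr1, the atypical chemokine receptor of venules, in heterozygous endothelial-marked cells lay in those 2 cells. The cells were picked by their sum of venous genes, so high venous genes in them are a description. Cxcl12 had 4 UMIs in the 2 heterozygous and 1 UMI in the 4 wild-type cells. Slc2a1 stood there at 4399 CPM in heterozygous and 3362 CPM in wild-type cells. The remaining cells differed in Cxcl12 as well, at 3801 CPM in 25 heterozygous and 505 CPM in 6 wild-type cells. In those cells Vwf stood at 183 CPM in heterozygous and 452 CPM in wild-type cells. Lrg1 and Ackr1 had 0 UMIs in heterozygous and 4 and 3 UMIs in wild-type cells. Other venous genes were not lower in the heterozygous cells there. Vcam1 stood at 126 CPM in heterozygous and 69.6 CPM in wild-type cells, on 18 and 4 UMIs. Tmem252 stood at 429 and 313 CPM, and Lcn2 at 56.2 and 52.2 CPM. The 2 heterozygous cells held 8.75% of the UMIs of their library's endothelial-marked cells, and the 4 wild-type cells held 34.8%. The level of 10000 CPM was set after the values were seen.

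A few cells carried arterial markers. In the heterozygous library 1 cell held 17 UMIs of Gkn3, an arterial marker in mouse brain, and 49 of Mgp, a calcification inhibitor, and its arterial list reached 22191 CPM. Mgp, which is on that list, was higher in cells under the endothelial level, at 4818 CPM in heterozygous and 3911 CPM in wild-type cells. In endothelial-marked cells Mgp stood at 423 CPM in heterozygous and 329 CPM in wild-type cells. Gkn3 had 29 UMIs in 3 heterozygous cells and 0 UMIs in wild-type endothelial-marked cells. Among doubly marked cells it had 8 UMIs in 1 heterozygous and 22 UMIs in 1 wild-type cell, and with marker lists at 4000 CPM its log2 ratio in endothelial-marked cells was -0.57. Plvap, which forms the diaphragms of fenestrated endothelium, was found in 1 heterozygous cell with 14 UMIs and in 1 wild-type cell with 5 UMIs. That heterozygous cell held 43 UMIs of Rgcc, the most of any heterozygous endothelial-marked cell, and 0 UMIs of Cldn5.

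**Figure D4:**
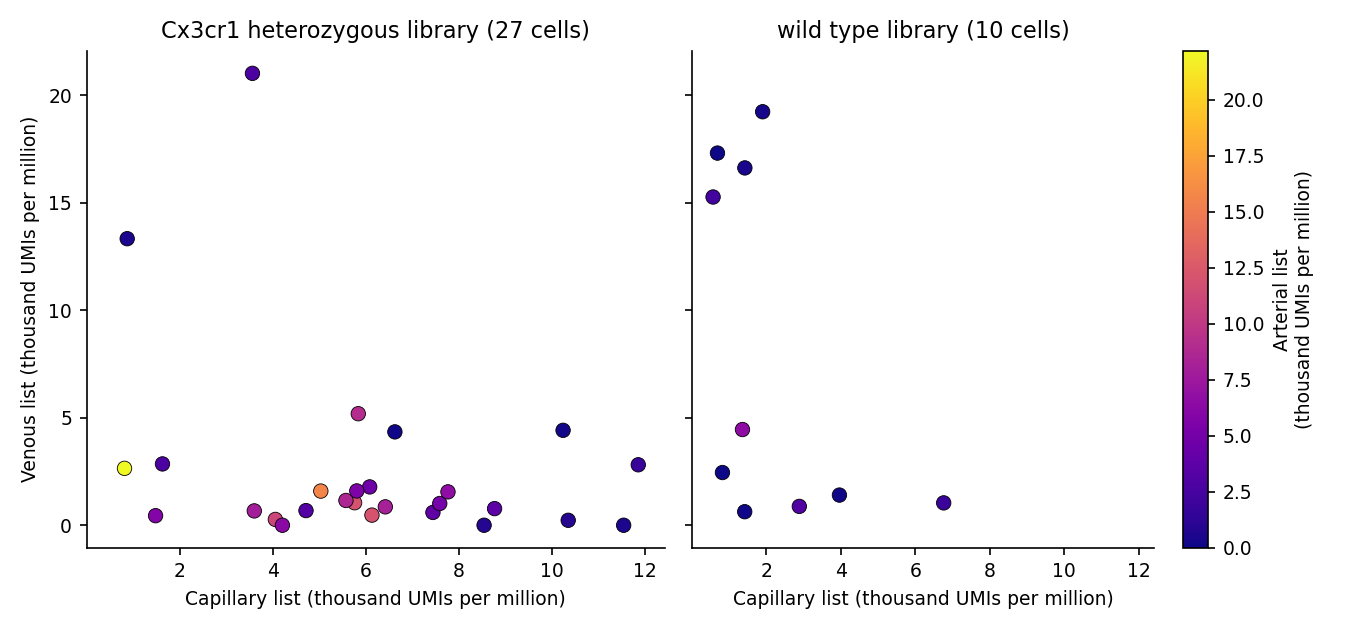
Each point is an endothelial-marked cell, placed by its capillary list (x axis) and venous list (y axis) and coloured by its arterial list, all in units of 1000 CPM, with the heterozygous library left and the wild-type library right. On the venous axis, 2 of 27 heterozygous and 4 of 10 wild-type cells stand above 10 of these units. The arterial list includes Cxcl12.

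Interferon-response genes were higher in the heterozygous endothelial-marked cells in 18 of 26 measured genes, with 0 lower and a median log2 ratio of 0.96, 2 genes being at their bound. Isg15, a ubiquitin-like protein made after interferon, stood at 436 CPM in heterozygous and 148 CPM in wild-type cells, a log2 ratio of 1.56 (0.69 to 2.54). Ifit3, an antiviral RNA-binding protein, stood at 244 CPM in heterozygous and 45.4 CPM in wild-type cells, on 38 and 4 UMIs. Iigp1, an interferon-induced GTPase, stood at 180 CPM in heterozygous and 34.1 CPM in wild-type cells, on 28 and 3 UMIs. Summed over the list the gap was smaller, at 12284 CPM in heterozygous and 10227 CPM in wild-type cells, and Ly6a, Ifitm3 and Ly6e held most of its UMIs. Per cell, the list's sum had a lower median in heterozygous cells, at 9079 CPM against 11038 CPM in wild-type cells. Its ranges overlap, from 2562 to 24148 CPM in heterozygous and from 4260 to 19922 CPM in wild-type cells. Ifitm3, a viral entry inhibitor, stood at 2327 CPM in heterozygous and 2985 CPM in wild-type cells. MHC class I genes, which include near-identical copies, were even, with 1 higher and 1 lower of 12.

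Cell cycle genes were lower in all 8 measured of the endothelial-marked cells, with a median log2 ratio of -2.17 and 2 genes at their bound. This rests on 1 wild-type cell with 137 UMIs of the list. Top2a, the topoisomerase of dividing cells, had 0 UMIs in heterozygous and 11 UMIs in wild-type cells, all in that 1 cell. Without the cell of each library that held the most such UMIs, the median was -0.50. Apod, an apolipoprotein, stood at 173 CPM in heterozygous and 738 CPM in wild-type cells, with 64.6% of the wild-type UMIs in 1 cell. Tmsb10, an actin-binding thymosin, stood at 2565 CPM in heterozygous and 7945 CPM in wild-type cells, and at 3073 and 3653 CPM in their other kept cells. Its log2 ratio of -1.63 was -0.79 with marker lists at 4000 CPM, -0.90 after thinning and -1.01 with equal weight per cell, and 36.7% of the wild-type UMIs came from 1 cell. Sparc, a matrix protein, stood at 1898 CPM in heterozygous and 3473 CPM in wild-type cells, a log2 ratio of -0.87, which turned to 0.43 without the cell with the most UMIs in each library.

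Over all members, 353 genes were higher and 248 lower in the heterozygous library of 2145 with at least 50 UMIs, which is 16.5% and 11.6%. At the list limit of 10 UMIs, 24.1% were higher and 19.5% lower. The highest ratios came from few cells. Mcpt8 and Prss34 were at 2136 and 5330 CPM in heterozygous members, against 5.98 CPM and 0 UMIs in wild-type members, and the 2 cells named above held nearly all of them. Hbb-bs, a haemoglobin chain that shares reads with its copies, was at 13791 CPM in heterozygous and 47.8 CPM in wild-type members, with 99.7% of the heterozygous UMIs in 1 cell. Acta2 stood at 1575 CPM in heterozygous members and 0 UMIs in wild-type members.

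Among the 12 genes with the lowest ratios were Cd74, Ptprc and Lyz2. Cd74, the chaperone of MHC class II, stood at 44.4 CPM in heterozygous and 562 CPM in wild-type members. Ptprc, the leukocyte phosphatase CD45, stood at 44.4 CPM in heterozygous and 281 CPM in wild-type members, and Lyz2, lysozyme, at 169 CPM in heterozygous and 1028 CPM in wild-type members. The pan-leukocyte list passed 2000 CPM in 1 of 54 heterozygous and 4 of 19 wild-type members, and its part in these ratios was not tested. In endothelial-marked cells Ptprc had 0 UMIs in both libraries. There Cd74 had 8 UMIs in heterozygous and 20 UMIs in wild-type cells, a log2 ratio of CPM of -2.15 (-3.54 to -0.90). Lyz2 had 20 UMIs in heterozygous and 6 UMIs in wild-type endothelial-marked cells, a log2 ratio of 0.91 (-0.46 to 2.52).

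The venous list was lower in 12 and higher in 0 of 17 measured genes over all members, with a median of -1.37. The capillary list was higher in 9 and lower in 2 of 13 (0.91), the barrier transporters in 15 and 1 of 28 (0.64), and the Wnt list in 9 and 0 of 15 (0.63). The Wnt median was -0.070 among members with no C1q UMI and S100a8/9 under 5000 CPM. Arterial genes were mixed, with 7 higher and 6 lower of 17. Interferon genes were higher in 7 and lower in 2 of 27, with a median of 0.03, and the difference of this list between the cell sets was not tested.

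**Figure D5:**
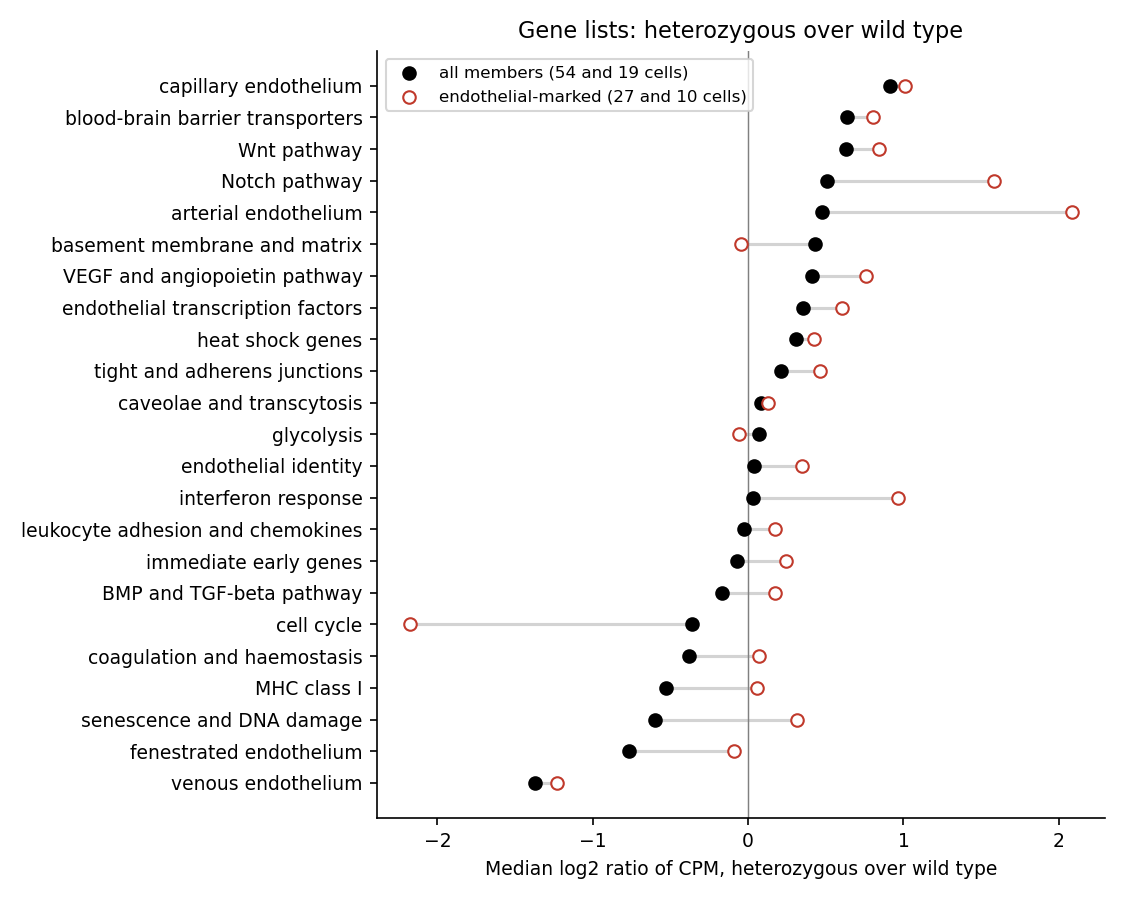
For each gene list, the filled circle gives the median log2 ratio of CPM, heterozygous over wild type, over all members and the open circle the same over endothelial-marked cells (x axis, log2 scale; lists with at least 5 measured genes in both). The venous list lies at -1.37 and -1.23, and the cell cycle list moves the most, at -0.36 and -2.17. The second cell cycle value rests on 1 wild-type cell with 137 UMIs of that list. Among all members, the 2 heterozygous cells high in Mcpt8 held 171 and 208 UMIs of it.

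The gene named in the labels was low in the members. Cx3cr1, the fractalkine receptor of microglia and monocytes, had 6 UMIs in heterozygous and 16 UMIs in wild-type members, which is 13.3 CPM in heterozygous and 95.6 CPM in wild-type cells, against 629 and 695 CPM in their other kept cells. In endothelial-marked cells it had 1 UMI in the heterozygous and 2 UMIs in the wild-type library. Cx3cl1, fractalkine itself, which endothelial cells and neurons make, had 19 UMIs in heterozygous and 7 UMIs in wild-type members, at 42.1 CPM in heterozygous and 41.8 CPM in wild-type cells, against 0.622 and 0.259 CPM in the other kept cells.

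Sex-linked transcripts were counted in each cell. Xist, the RNA of the inactive X chromosome, was found without a Y-linked UMI in 49 of 54 heterozygous and 11 of 19 wild-type members. UMIs of Ddx3y, Uty, Eif2s3y or Kdm5d, which lie on the Y chromosome, were absent from all heterozygous members and present in 5 of 19 wild-type members, 2 of them with no Xist. All 5 lay outside the 10 endothelial-marked cells, of which 8 held Xist and 2 neither. Among the other kept wild-type cells, 175 of 1732 held Xist alone, 758 Y-linked UMIs alone, 152 both and 647 neither. In the other kept heterozygous cells these counts were 913, 5, 1 and 261 of 1180. The source of these cells was not tested.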

How the data were processed

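The authors deposited 1 matrix per library that holds raw UMI counts by gene and barcode, with no scaling. The authors used Cell Ranger 4.0 and mm10 (GRCm38), per the submitters' processing notes, while the matrix headers per the file headers name Cell Ranger 5.0.0; which version made the counts is not given in the sources used here. Counts of members were summed per library and expressed as CPM (scaled to 1000000) of that sum. These are 3′ counts and are not scaled to gene length.

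Ratios are heterozygous over wild type with exact conditional binomial 95% intervals, CPM carry exact Poisson and shares exact Clopper-Pearson intervals (Python 3.11.15, scipy 1.17.1); the limit for a share of 0 is 3 counts of the total, and PCR and cell sampling add error that they do not cover. Genes without a UMI in 1 library were set at a bound of 3 UMIs summed over that library. On simulated Poisson counts the intervals were checked for coverage. TMM (edgeR 4.0.16) and median-of-ratios (DESeq2 1.42.0) factors served as alternatives only. Thinning drew each cell to 2000 UMIs.

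Members, gene lists and tests were chosen with earlier results of these data known. Genes were named by a rule: the rule genes, Ly6c1, Cx3cr1 and Cx3cl1, the 20 highest folds over other kept cells, the 12 highest and 12 lowest ratios, and, for each of 25 lists, up to 4 genes with the highest absolute ratio and the 4 most abundant. The same ratio rule was applied to endothelial-marked cells, a class made after seeing the data; Tek, Cdh5, Prox1, Slco1c1, Abcb1a, Abcg2, Gkn3, Plvap, Isg15, Ifit3, Iigp1, and Top2a were named after their values were seen. With 1 library per genotype no test was run. No doublet caller was run.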

Additional observations from a re-analysis of the deposited data

How the results depend on the processing

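The share of members stayed within its interval under the other settings, except that keeping shared barcodes gave 1.74% in the wild-type library. Counts of genes past 1.5-fold scale with the minimum: 1057 higher and 805 lower at 20 UMIs, and 52 and 64 at 200 UMIs. Thinning to 2000 UMIs left fewer genes tested. It gave 62 higher and 71 lower of 398 genes over all members (15.6% and 17.8%). In endothelial-marked cells it gave 39 and 39 of 200 genes (19.5% each). Members with no C1q UMI and S100a8/9 under 5000 CPM were 21 heterozygous and 9 wild-type cells. They gave 71 higher and 146 lower of 568 genes (12.5% and 25.7%), and 5 of 24 list medians above 0, against 15 of 25. The cause was not tested. The endothelial-marked cells alone gave 142 higher and 130 lower of 757 genes (18.8% and 17.2%). Of 2145 genes, TMM and median-of-ratios scaling gave 417 and 433 higher (19.4% and 20.2%) and 214 and 198 lower (9.98% and 9.23%).

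Reversed values, meaning a change of sign in a value past 1.5-fold, were few. The Wnt list median was -0.070 and the senescence list 0.10 in cells with no C1q UMI, and the senescence list 0.31 in endothelial-marked cells. Hbb-bs was -0.82 there and -0.14 without the haemoglobin barcode, and Lyz2 was 0.91 in endothelial-marked cells. In that class, chosen after seeing the data, Gkn3 was -0.57 with marker lists at 4000 CPM and Sparc 0.43 without the deepest cells. Sizeable shifts short of a reversal were more frequent. They occurred in 59 of 290 values of named genes over all members and in 57 of 369 in endothelial-marked cells. After thinning, 28 named genes of the endothelial-marked class shifted in this way and 25 did not. Over the alternatives run for that class, the venous median stayed between -1.88 and -0.90, the capillary median between 0.68 and 1.68, and the Cxcl12 ratio between 3.17 and 3.81. The arterial median lay between 0.61 and 2.15, the Notch median between 0.88 and 2.07, the interferon median between 0.42 and 1.08, and the Tmsb10 ratio between -1.70 and -0.79. No paired analysis was possible because there is 1 library per genotype. At this depth, ratios of genes under 50 UMIs have wide counting intervals.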

Other observations

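Further lists were counted in the endothelial-marked cells. Immediate early genes, which dissociation of tissue can induce, had 4 higher and 2 lower of 20 measured genes, with Fos at 3231 CPM in heterozygous and 2327 CPM in wild-type cells. Heat shock genes had 4 higher and 1 lower of 10, and Hspb1, a small heat shock protein, stood at 1757 CPM in heterozygous and 897 CPM in wild-type cells. Basement membrane and matrix genes had 6 higher and 6 lower of 17.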
